A study of Gallus gallus with 6 samples.

Results

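Reactive oxygen species are made and removed by a small set of enzymes, and 10 of their genes were followed here in chick limb bud tissue that had been exposed to fibroblast growth factor 2 (FGF2). The genes were taken by name from the platform annotation of the array, as every probe set whose only gene symbol was NOX3, NOX4, CYBA, HMOX1, SOD1, SOD2, CAT, PRDX1, TXN or TXNRD1. They comprised 3 subunits of NADPH oxidases and 7 antioxidant enzymes, with 17 of the 38439 probe sets tested and 10 of the 13051 genes named. NOX3 was singled out for its difference between the FGF2 and phosphate-buffered saline (PBS) arrays, so the FGF2 against PBS values of the 10 genes are given as a description. Counts of members past a threshold stand beside those of all probe sets, and nothing is read from them.

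Chick embryos at Hamburger-Hamilton stage 23 received a heparin acrylic bead carrying either recombinant human FGF2 or PBS, set in the posterior mesoderm of the forelimb bud. After 24 h, at stage 25, the tissue next to the bead was dissected for RNA. Controls thus had the same surgery and the same kind of bead, and no genetic change was made in either group. Chicken Genome arrays were run on 3 RNA samples per group, each pooled from several embryos, and the replicates are numbered 1 to 3 in each group.

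NADPH oxidases pass electrons from NADPH through a membrane to oxygen and so produce superoxide or hydrogen peroxide. Superoxide dismutases turn superoxide into hydrogen peroxide, and catalase, peroxiredoxins and glutathione peroxidases remove the peroxide, the last of these groups with electrons that come from NADPH through glutathione. Thioredoxin restores peroxiredoxins and is itself reduced by thioredoxin reductase. In the mouse limb bud, reactive oxygen species have been described in the interdigital mesenchyme, where cells die as the digits separate.

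The values are log2 intensities after Robust Multi-array Averaging (RMA), which equalizes the distributions of the arrays. Array medians lay between 4.75 and 4.81. As a low limit served 3.57, the 95th percentile of the mean values of 746 probe sets that are not named as chicken transcripts. Their median was 2.38. The limb identity of the tissue was plain in all arrays. All 7 limb mesenchyme markers, among them the homeobox gene PRRX1 (13.0 to 13.4) and the forelimb T-box gene TBX5 (11.1 to 11.5), lay above the low limit on all 6 arrays.

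NOX3 (Entrez Gene 428609) encodes the catalytic subunit of an NADPH oxidase that is best known from the inner ear, where mice without it fail to form the otoconia of the balance organ. Its probe set read 5.12, 4.37 and 4.68 on the PBS arrays and 7.64, 8.03 and 7.13 on the FGF2 arrays, in the order of the replicates. Every FGF2 array lay above every PBS array, with 2.01 log2 units between the lowest FGF2 and the highest PBS value, and all 6 arrays lay above the low limit. The means were 4.72 ± 0.378 in PBS and 7.60 ± 0.454 in FGF2 tissue (SD, n = 3), a log2 fold change of 2.88 ± 0.296 (SE) or 7.35-fold. The difference ranked number 6 of 13051 genes in the FGF2-higher direction. With each array left out in turn it stayed between 2.66 and 3.11. NOX3 is represented by a single probe set, of a class that can match more than 1 transcript, so no second probe set bears on its value. In tissue samples, a higher level from more cells that express a gene cannot be told apart from more RNA per cell.

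**Figure D1:**
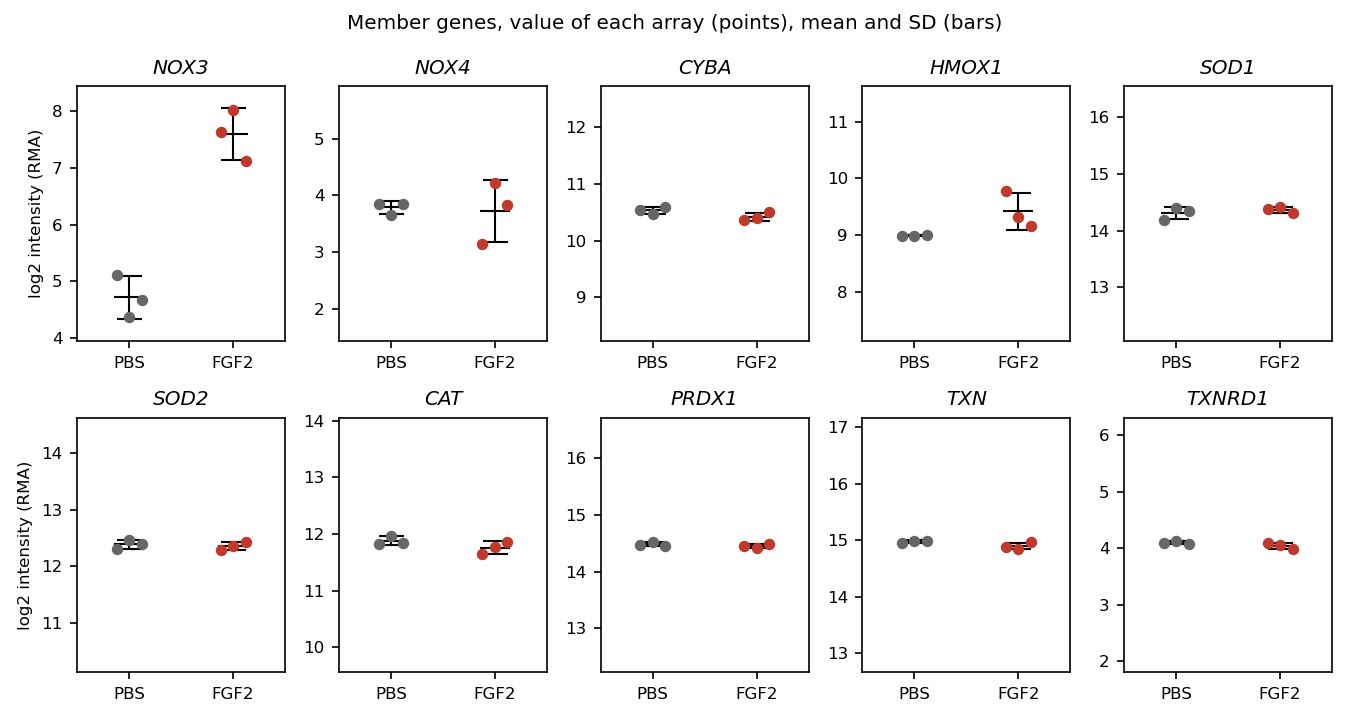
Log2 RMA intensity of each array (points; 3 PBS in grey, 3 FGF2 in red) with the group mean and SD (black), for the probe set with the highest mean of each of the 10 genes; every panel spans 4.5 log2 units. NOX3 lay at 4.37 to 5.12 in PBS and at 7.13 to 8.03 in FGF2 tissue, HMOX1 was also separated by group, and the points of the other genes overlap.

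The other oxidase genes showed no comparable separation. CYBA (Entrez Gene 100859840) encodes p22phox, the small membrane partner that stabilizes NOX3, NOX4 and other catalytic subunits. Its brighter probe set read 10.54, 10.47 and 10.60 in PBS and 10.37, 10.39 and 10.51 in FGF2 tissue, a log2 fold change of -0.11 ± 0.0522 (SE). The groups overlapped, and the second CYBA probe set gave -0.02 ± 0.0748. The partner of NOX3 was therefore measured well above the low limit in both groups, with a difference of at most 0.16 log2 units in either direction in any fit with 1 array left out.

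NOX4 (Entrez Gene 419012) encodes an oxidase that is active without cytosolic partners and releases hydrogen peroxide. The brighter of its probe sets read 3.86, 3.66 and 3.85 in PBS and 3.14, 4.22 and 3.82 in FGF2 tissue, and only 5 of 6 arrays lay above the low limit. The FGF2 arrays enclosed the PBS arrays on both sides. The log2 fold change was -0.06 ± 0.278 (SE), turning to 0.23 without FGF2 replicate 1 and to -0.31 without FGF2 replicate 2. The other NOX4 probe set lay under the low limit on all 6 arrays and was likewise highest in FGF2 replicate 2, at 3.54.

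Of the antioxidant genes, HMOX1 was the one whose FGF2 arrays all stood above the PBS arrays. HMOX1 (Entrez Gene 396287) encodes heme oxygenase 1, which breaks down heme and is induced by heme and by oxidants. It read 8.99, 8.98 and 9.01 in PBS tissue and 9.78, 9.32 and 9.15 in FGF2 tissue. The PBS arrays were nearly equal and the FGF2 arrays spread, with replicate 1 the highest. The means of 8.99 ± 0.0157 and 9.42 ± 0.325 (SD, n = 3) gave a log2 fold change of 0.43 ± 0.164 (SE), or 1.35-fold. Without FGF2 replicate 1 the log2 fold change was 0.25, and with array weights it was 0.18.

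The dismutases were level between groups. SOD1 (Entrez Gene 395938), the copper and zinc enzyme of the cytosol, read 14.19, 14.39 and 14.35 in PBS and 14.38, 14.41 and 14.31 in FGF2 tissue, a log2 fold change of 0.05 ± 0.0613 (SE). SOD2 (Entrez Gene 374042), the manganese enzyme of mitochondria, gave -0.03 ± 0.0592. Its arrays lay between 12.28 and 12.47 over both groups. A second, dim SOD1 probe set spread from 3.98 to 4.93 over the 6 arrays, with both extremes in the FGF2 group.

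Among the enzymes that remove peroxide, CAT (Entrez Gene 423600), the catalase of peroxisomes, had 3 probe sets that did not move alike. The brightest gave a log2 fold change of -0.12 ± 0.0707 and the second -0.10 ± 0.0393, whereas the dimmest gave 0.10 ± 0.0590 (SE). The second read 11.81, 11.81 and 11.70 in PBS and 11.65, 11.70 and 11.67 in FGF2 tissue, so its FGF2 arrays were lower by a margin below the second decimal. PRDX1 (Entrez Gene 424598), an abundant cytosolic peroxiredoxin, lay between 14.42 and 14.52 on all 6 arrays, with a log2 fold change of -0.03 ± 0.0300 (SE).

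TXN (Entrez Gene 396437) encodes thioredoxin, the small protein that keeps PRDX1 reduced. It read 14.95, 14.98 and 14.99 in PBS and 14.88, 14.84 and 14.96 in FGF2 tissue, a log2 fold change of -0.08 ± 0.0381 (SE). SOD1, PRDX1 and TXN all lay near the upper end of the scale, whose highest tested value was 15.95, and whether differences are compressed there was not tested. TXNRD1 (Entrez Gene 418082), the cytosolic thioredoxin reductase, was close to the other end. Its brightest probe set lay between 3.99 and 4.12 and gave -0.05 ± 0.0360 (SE), and its other 2 probe sets lay under the low limit on all arrays and gave -0.05 ± 0.0373 and -0.05 ± 0.0416.

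Both of those dim TXNRD1 probe sets were highest in PBS replicate 2 and lowest in FGF2 replicate 2. The median of the 746 low-limit probe sets had the same extremes, at 2.42 in PBS replicate 2 and 2.33 in FGF2 replicate 2. The part of the floor in the TXNRD1 values was not tested.

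**Figure D2:**
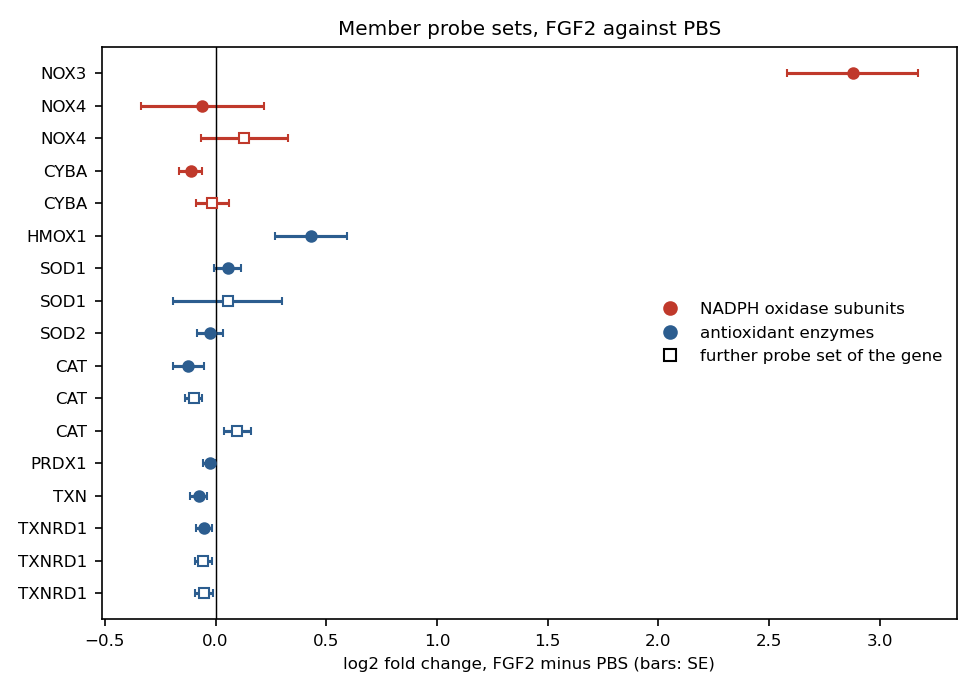
Log2 fold change, FGF2 minus PBS, of all 17 member probe sets, with the SE of limma as bars; filled circles are the brightest probe set of a gene and open squares its further probe sets. NOX3 stands at 2.88 and HMOX1 at 0.43, and the remaining 15 probe sets lie between -0.12 and 0.13.

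The oxidases and the antioxidant enzymes were also set side by side. Taking 1 probe set per gene, 1 oxidase gene was higher and 2 were lower, the log2 fold changes averaging 0.90 around a median of -0.06. Of the 7 antioxidant genes 2 were higher and 5 lower, averaging 0.03 around a median of -0.03. Among all 13051 genes, 5937 were higher and 7114 lower (median -0.01). The oxidase minus antioxidant difference was -0.03 by medians and 0.88 by means, the latter including NOX3 at 2.88. By medians it turned to 0.26 without FGF2 replicate 1, where NOX4 went from -0.06 to 0.23.

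By limma over all probe sets, 0 of the 17 member probe sets passed an adjusted p of 0.05, where 4 of 38439 did (0.0104%). At an unadjusted p under 0.05, 2 of 17 were counted, NOX3 and HMOX1, where 8.93% of all probe sets were. The groups did not overlap in 3 of 17 (NOX3, HMOX1 and 1 of CAT), where 12.4% of all probe sets did not. The FGF2 arrays were the higher ones in 2 of the 3, NOX3 and HMOX1 (6.53% of all probe sets), and the lower ones in CAT (5.84%). Since NOX3 was chosen on this contrast, nothing is read from these counts.

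The remaining subunits and regulators of NADPH oxidases were drawn up as a list of 18 genes, of which 14 were measured. None passed an adjusted p of 0.05 in limma, where 0.00766% of all genes did. At an unadjusted p under 0.05, 2 were higher and 0 lower, against 12.3% of all genes in either direction. The median log2 fold change was -0.02 (5 higher, 9 lower). NOXO1 and NOXA1, the organizer and activator that work with NOX3 in mammals, lay between 2.07 and 2.18 and between 2.46 and 2.58, under the low limit on all arrays. The catalytic subunits NOX1, NOX5 and DUOX1 and the phagocyte subunit CYBB were also under it on all arrays, and CYBB read 2.76 to 2.85 in PBS and 2.82 to 3.0 in FGF2 tissue. Of the catalytic subunits measured, NOX3 was thus the one that read above the low limit on all 6 arrays. RAC1, a widely expressed activator of several oxidases, lay between 13.8 and 13.9 throughout.

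RAC2, a subunit of the phagocyte oxidase in blood cells, read 4.99, 4.98 and 5.09 in PBS and 5.60, 6.03 and 5.67 in FGF2 tissue. All FGF2 arrays lay above all PBS arrays, with a log2 fold change of 0.74 ± 0.120 (SE; adjusted p = 0.270). SH3PXD2A, a scaffold protein of podosomes, gave -0.27 ± 0.137 (SE; adjusted p = 0.644) in overlapping groups, and -0.15 without PBS replicate 1. Of its further probe sets above the low limit on all arrays, the most negative gave -0.52 ± 0.129 (SE; adjusted p = 0.388) without overlap. The others of these gave -0.30 and -0.08 in overlapping groups. CYBC1, a chaperone of the phagocyte oxidase that is named here after its values were seen, gave 0.14 ± 0.0523 (SE; adjusted p = 0.544) and 0.31 in its other probe set, with no overlap between groups in either.

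RAC2 and HMOX1 are both expressed in macrophages, and markers of these cells were higher around FGF2 beads. Of 12 macrophage markers 11 were measured, all 11 were higher and 9 did not overlap, against 16.0% of all genes. In limma 0 passed an adjusted p of 0.05, against 0.00766% of all genes. At an unadjusted p under 0.05 there were 9, against 12.3%. The complement gene C1QB gave 1.77 ± 0.243 (SE; adjusted p = 0.223), and CD74, the invariant chain of MHC class II, had the lowest adjusted p with 0.60 ± 0.0372 (SE; adjusted p = 0.0532). The summed linear intensity of the 11 markers was 2386 to 2610 on the PBS arrays and 3824 to 4637 on the FGF2 arrays. The scavenger receptor MARCO was under the low limit on all 6 arrays. The median difference of the list from its PBS mean was 0.78, 0.92 and 0.57 on FGF2 replicates 1 to 3. The single markers did not share this order. C1QA, C1QB, C1QC, CSF1R, CTSS, MARCO and SPI1 were highest on replicate 1, and CD74, LAPTM5, LY86 and PTPRC on replicate 2. HMOX1 was highest on replicate 1 and NOX3 and RAC2 on replicate 2. The part of macrophage RNA in the values of NOX3, HMOX1 and RAC2 was not tested.

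Lists of markers of other cells were examined in the same way. The 10 inner ear markers, which include the otoconial protein gene OC90, were compared because of the known site of NOX3. In this list 8 of 10 lay under the low limit on all arrays, and 0 were separated by group, against 16.0% of all genes. Of the others, OTOA lay between 5.98 and 6.60 on all arrays, with a log2 fold change of 0.02. COCH was above the low limit only on FGF2 replicates 2 and 3, at 3.97 and 4.54, and gave 0.45 ± 0.254 (SE). The summed intensity of the inner ear list was 134 to 149 in PBS and 132 to 175 in FGF2 tissue. The 8 measured erythroid markers had a median log2 fold change of -0.02 and the 10 endothelial markers -0.01. Skeletal muscle and cartilage markers had medians of -0.42 and -0.50, with 9 of 10 and 8 of 10 genes lower, and their part in the redox values was not tested. The muscle list was separated by group in 4 of 10 genes, all lower, against 16.0% of all genes. In limma 0 passed an adjusted p of 0.05, and 3 were lower at an unadjusted p under 0.05, against 12.3% in either direction. The median difference of the muscle list from its PBS mean was -0.53, -0.72 and -0.11 on FGF2 replicates 1 to 3. The cartilage list was separated by group in 0 of 10 genes, and its median difference from the PBS mean was -0.70, -0.79 and 0.08 on FGF2 replicates 1 to 3.

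The 6 measured nerve and neural crest markers were split, 3 higher and 3 lower (median -0.04). Between groups 4 did not overlap, against 16.0% of all genes. The neuronal gene STMN2 had a log2 fold change of 2.44 (adjusted p = 0.147), whereas the neuronal genes ELAVL4 and TUBB3 gave -0.12 and 0.04. ISL1 gave 0.34 ± 0.450 (SE) in overlapping groups, and the neural crest genes SOX10 and FOXD3 gave -0.78 and -0.64. The summed intensity of the list was 1611 to 2068 in PBS and 2377 to 3283 in FGF2 tissue, although STMN2 was the only higher one of the 4 genes without overlap. Of the 7 limb mesenchyme markers 6 were higher and 1 lower (median 0.10), and 3 did not overlap, against 16.0% of all genes. These were LHX2 and MSX1 at 2.5 ± 0.220 and 2.12 ± 0.155 (SE, adjusted p = 0.105 and 0.0681), and TBX5, lower at -0.16. HAND2, PRRX1, PDGFRA and TWIST1 gave 0.34, 0.10, 0.06 and 0.008 in overlapping groups. The part of these cells in the redox values was not tested.

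**Figure D3:**
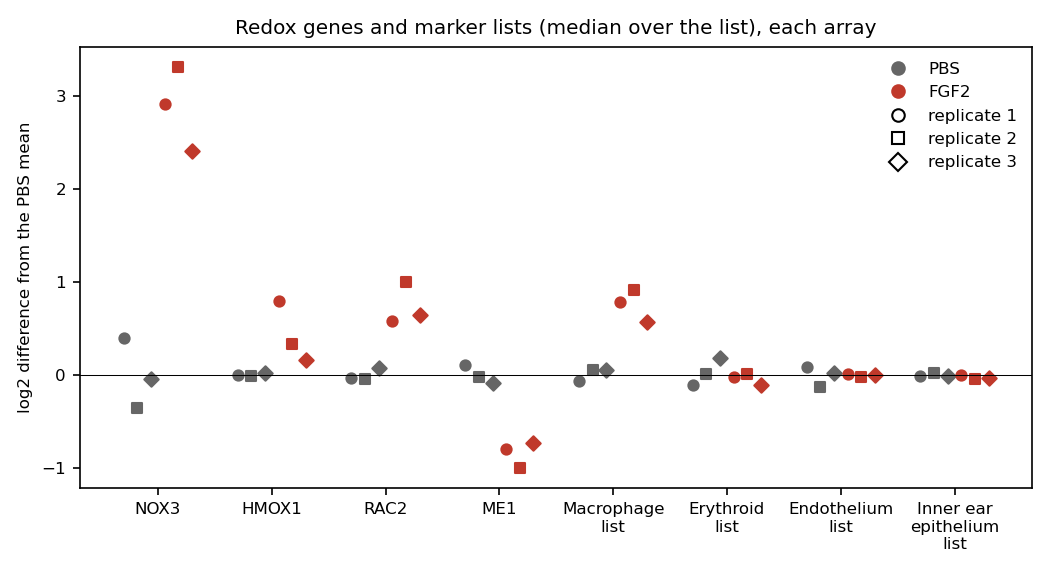
Log2 difference of each array from the PBS mean (grey PBS, red FGF2; circle, square and diamond for replicates 1 to 3), for 4 genes and for the median over 4 marker lists. On the FGF2 arrays NOX3, HMOX1, RAC2 and the macrophage list lay above the PBS arrays and ME1 below them, while the erythroid, endothelial and inner ear lists stayed within 0.2 of the PBS mean. The muscle, cartilage and other marker lists are not drawn.

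Beyond the oxidases, 5 further lists covered peroxide removal, thioredoxin, glutathione, NADPH supply and the transcription factor NRF2 with its targets. Over all 6 lists 79 of 97 genes were measured and 0 passed an adjusted p of 0.05 in limma, where 0.00766% of all genes did. At an unadjusted p under 0.05 there were 12 of 79, 7 higher and 5 lower, against 12.3% of all genes. The groups did not overlap in 16 of 79, against 16.0%. The median log2 fold change of the 79 was -0.002, with 38 higher and 41 lower.

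The supply of NADPH, on which both oxidases and thioredoxin reductase draw, held the gene with the lowest adjusted p of these lists. ME1, the cytosolic malic enzyme that yields NADPH, read 7.72, 7.59 and 7.52 in PBS and 6.82, 6.61 and 6.88 in FGF2 tissue. Every FGF2 array lay under every PBS array, a log2 fold change of -0.84 ± 0.0873 (SE; adjusted p = 0.147) or 1.79-fold lower. It passed the threshold in 2 of 14 alternatives, with adjusted p from 0.0229 to 0.481 over all of them. The other 7 measured genes of the list lay between -0.08 and 0.17. NADK, which makes NADP by phosphorylating NAD, gave 0.17 ± 0.109 (SE, adjusted p = 0.644), with 0.10 without PBS replicate 3 and 0.27 without PBS replicate 2. Of its further probe sets 2 gave 0.30 and 0.29 without overlap, and the dimmest gave -0.04 in overlapping groups.

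Of the thioredoxin and glutaredoxin list, 14 genes were measured, with a median of -0.02 (6 higher, 8 lower). GLRX, the cytosolic glutaredoxin that reduces glutathionylated proteins, gave the highest value of the 79 genes, 1.27 ± 0.492 (SE; adjusted p = 0.552). It read 2.81, 3.37 and 3.36 in PBS and 5.15, 4.79 and 3.39 in FGF2 tissue. Only FGF2 replicates 1 and 2 lay above the low limit, and replicate 3 was level with the PBS arrays, and the fold change ran from 0.36 with array weights to 1.79 without FGF2 replicate 3. MSRA, which repairs oxidized methionine, gave -0.15 ± 0.155 (SE; adjusted p = 0.652), with a range from -0.42 with array weights to -0.005 without FGF2 replicate 3.

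The 12 measured genes of the list for superoxide and peroxide removal were split evenly, 6 higher and 6 lower around a median of 0.004. This list also held the heme breakdown genes HMOX2 and BLVRA, at 0.08 and 0.03, both among the higher ones. GPX7, a peroxidase of the endoplasmic reticulum, read 9.31, 9.42 and 9.17 in PBS and 9.13, 8.73 and 9.15 in FGF2 tissue, a log2 fold change of -0.30 ± 0.134 (SE; adjusted p = 0.600). It was -0.17 without FGF2 replicate 2 and -0.12 with array weights. GPX3, a secreted glutathione peroxidase, gave -0.23 ± 0.0805 (SE; adjusted p = 0.521). In both genes the FGF2 arrays lay under the PBS arrays without overlap.

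Of 15 genes of glutathione synthesis and transfer 7 were higher and 8 lower (median -0.02). GSTA3, an alpha class glutathione transferase, read 7.76, 8.09 and 7.72 in PBS and 8.53, 8.23 and 8.15 in FGF2 tissue, a log2 fold change of 0.45 ± 0.145 (SE; adjusted p = 0.496). GSTT1, a theta class transferase, gave -0.29 ± 0.100 (SE; adjusted p = 0.522). The GSTA3 groups were separate and those of GSTT1 overlapped.

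NRF2 is a transcription factor that controls HMOX1 and TXNRD1 among others. The 16 measured genes of the NRF2 list were evenly split, with 8 higher, 8 lower and a median of 9.43e-05. Groups did not overlap in 4 of them, 3 higher and 1 lower, against 16.0% of all genes in either direction. MAFK, a small MAF protein that pairs with NRF2 on DNA, gave 0.31 ± 0.114 (SE; adjusted p = 0.536), with the FGF2 arrays above the PBS arrays. OSGIN1, an NRF2 target, gave -0.30 ± 0.237 (SE; adjusted p = 0.644), from 1 PBS array at 3.79 while the other 5 arrays lay between 2.91 and 2.99, and without that array it was -0.03. NFE2L2, which encodes NRF2, the target NQO1 and SQSTM1 of the same list are named after their values were seen. NFE2L2 gave 0.001 ± 0.0241 (SE, adjusted p = 0.976) in overlapping groups, and a further NFE2L2 probe set gave 0.20 without overlap. NQO1 gave 0.19 ± 0.0581 (SE, adjusted p = 0.471), higher without overlap. SQSTM1 gave -0.11 ± 0.0277 (SE, adjusted p = 0.388), lower without overlap. Further SQSTM1 probe sets above the low limit gave -0.29 without overlap and -0.04 with overlap.

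**Figure D4:**
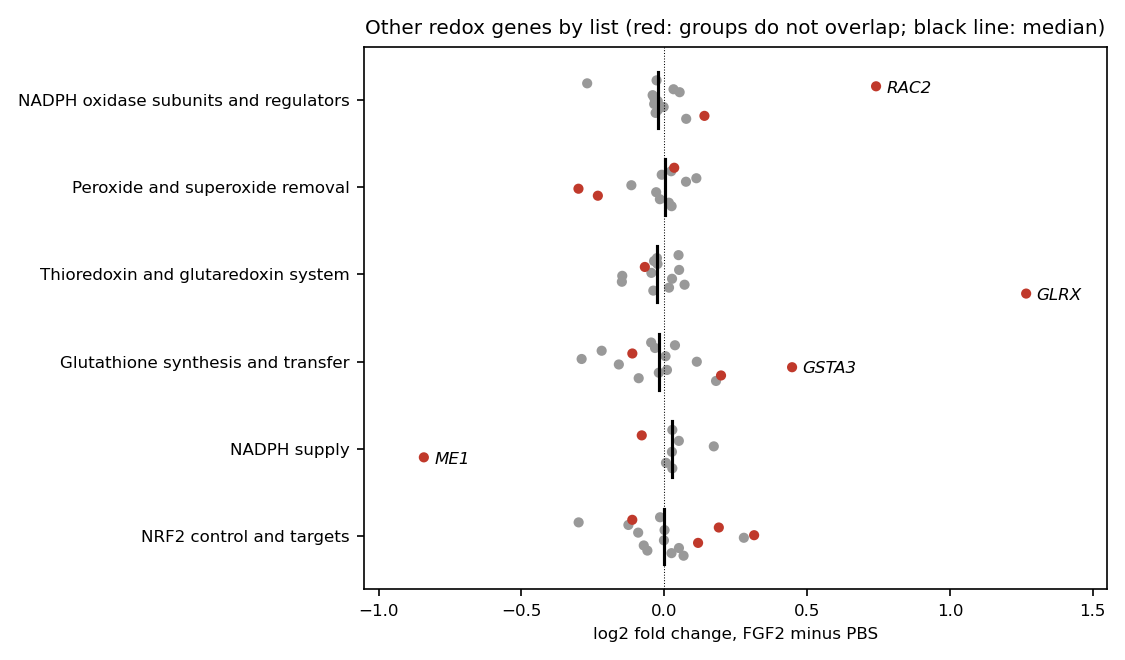
Log2 fold change, FGF2 minus PBS, of the 79 other redox genes, 1 point per gene by list, with the median of each list as a black line and genes whose groups do not overlap in red. The list medians lie between -0.02 and 0.03, while RAC2 (0.74), GLRX (1.27) and ME1 (-0.84) stand apart.

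Genes with a profile like that of NOX3 were looked for over the 6 arrays, among 613 genes whose values spanned at least 1 log2 unit. The highest Pearson correlations with NOX3 were those of OLFML1 (0.992), RLN3 (0.988), LMO1 (0.987), SST1 (0.984) and BLB1 (0.981). RLN3 encodes the relaxin 3 peptide, LMO1 a LIM-only protein and BLB1 a beta chain of MHC class II. All 5 shared the order of the FGF2 arrays with NOX3, replicate 2 the highest and replicate 3 the lowest. Correlations above 0.95 were found for 39 of the 613 genes, all over the same 3 PBS and 3 FGF2 arrays, so these values describe the arrays and carry no test.

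Of the 3 protein-coding genes on each side of NOX3 in the RefSeq order of the chicken assembly GRCg7b, 5 were measured. LOC112532107, next to NOX3 on one side, had no value here. These neighbours were added after the values of NOX3 were seen. On the other side TIAM2, TFB1M and CLDN20 differed between FGF2 and PBS by 0.11 ± 0.0591, 0.03 ± 0.0450 and -0.02 ± 0.0245 on the log2 scale, and beyond LOC112532107, ARID1B and TMEM242 differed by -0.03 ± 0.0887 and 0.08 ± 0.0385 (SE). All 5 overlapped between groups, with adjusted p from 0.617 to 0.832, and CLDN20, the other gene next to NOX3, was under the low limit throughout.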

How the data were processed

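RNA from 3 FGF2 and 3 PBS samples was measured on Affymetrix Chicken Genome arrays. The deposited values are log2 intensities that the authors normalized by Robust Multi-array Averaging (RMA), named in the submitters' processing notes; the log base was taken from the range of values, and the RMA version and any correction for GC content are not given in the sources used here. Of 38535 probe sets, 96 array controls were left out and 38439 tested, with no filter on low values. The platform annotation gave 27168 of them 1 symbol, 177 several and 11094 none. All 10 member symbols matched the RefSeq gene table. Where a gene had several probe sets, the one with the highest mean over the arrays stood for it. No probe set was given a genome position, and no sequences are shown.

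The groups were compared with limma 3.58.1 (lmFit, eBayes; R 4.3.3). P-values were two-sided and adjusted by Benjamini-Hochberg over all 38439 probe sets. Fold changes are differences of FGF2 from PBS in log2 units, each with limma's moderated SE. With 3 arrays against 3 a permutation test cannot give a p under 0.1. On simulated data for the 38439 probe sets, 86 of 100 planted log2 changes of 1 and 97 of 100 of 2 were recovered, with 16 false calls. Changes were planted in probe sets drawn at random, dim ones included, with independent normal noise of each probe set's own spread. The shares recovered do not carry over to the genes measured here. NOX3, with SDs of 0.378 and 0.454, had a log2 fold change of 2.88 and did not pass in the fit reported. Nor did MSX1, at 2.12 with SDs of 0.0623 and 0.301, or ME1, at -0.84 with SDs of 0.101 and 0.137. A gene that did not pass is therefore not shown to be unchanged. P-values measure the spread between pools of embryos, and the number of arrays limits precision.

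The members and lists were chosen with earlier results of these data known. The rule named every member probe set, from each list the genes past the threshold or else the 2 with the largest absolute change, and the 5 genes most like NOX3. Other settings tried were normalization (quantile again, median centring, cyclic loess), leaving out single arrays, the replicate number as a block, robust fitting with a trend, weighting of arrays, brighter probe sets alone, omission of classes s, x and a, other thresholds, and averaging the probe sets of a gene.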

Additional observations from a re-analysis of the deposited data

How the results depend on the processing

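NOX3 kept its direction in all 13 alternatives that could measure it, with log2 fold changes of 2.37 (array weights) to 3.11. It passed the threshold with the brighter probe sets, the variance trend and robust fit, and array weights, where 40, 39 and 2256 probe sets passed. The brighter probe sets were chosen by their mean over all arrays of both groups. The PBS mean of NOX3, 4.72, lay under the array medians of 4.75 to 4.81, so its place among them rested on its FGF2 arrays. Since NOX3 was also chosen on this contrast, nothing is read from its passing. NOX3 has no value without probe sets of the s, x and a classes, since its own is of class s. That setting and the brighter probe sets, which drop NOX4, therefore gave no oxidase minus antioxidant difference. That difference was -0.03 in the fit reported and lay between -0.11 and 0.26 when single arrays were left out, 0.26 being the value without FGF2 replicate 1. All 12 named genes of the lists kept their direction, MSRA at only -0.005 without FGF2 replicate 3. ME1 passed the threshold with the brighter probe sets (adjusted p = 0.0420) and with array weights (adjusted p = 0.0229). RAC2, MAFK, NADK and GSTA3 passed it with array weights alone.

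The count of probe sets past the threshold was 4. It was 0 to 3 with each array left out, 0 without any 1 of the PBS arrays, 1 with the replicate block, 7 after quantile normalization again, 40 with the brighter probe sets, 39 with the variance trend and robust fit, 2256 with array weights (their estimation did not converge), 1 at an adjusted p under 0.01 and 3433 at an unadjusted p under 0.05. Of the calls, 75% were higher in the fit reported, 57.1% after quantile normalization again and 60% without the s, x and a classes. The share was 71.4% with array weights, 83.3% with median centring, 92.3% with the variance trend and robust fit and 92.5% with the brighter probe sets. It was 100% with the replicate block and without any 1 of the FGF2 arrays, on 1 to 3 calls. The 79 redox genes gave 0 calls, 1 with the brighter probe sets, 7 with array weights and 12 at an unadjusted p under 0.05. The causes were not tested. Per the study's methods the repeats were made on separate days, but the labels do not tie a replicate number to a day. The deviations of same-numbered arrays correlated at -0.25, -0.002 and -0.18, so the numbers were not treated as pairs, and the block changed no call of a member or of a redox gene.

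Limits lie in 3 arrays per group, in a single probe set for NOX3, and in values near the floor (NOX4, TXNRD1, GLRX and the other catalytic subunits) or the upper end of the scale (SOD1, PRDX1 and TXN).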
